A study of Arabidopsis thaliana with 18 samples.

Results

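The beta-tubulin gene family of Arabidopsis thaliana, TUB1 to TUB9, was followed across the 6 groups of a seedling RNA sequencing experiment. The members were taken by gene code from the table of read counts, and all 9 of 9 were among its 14229 genes. Seedlings of the Col-0 ecotype were grown in liquid medium and given 1% DMSO (the control), 5 µM coronatine or 5 µM DPAM-1 at day 4 after germination. Coronatine is a toxin of the plant pathogen Pseudomonas syringae that mimics a jasmonate hormone, and DPAM-1 is a compound known here by its code name. Each treatment was also combined with 100 mM NaCl, added 16 h after the compound, and these seedlings were collected 2 h later. Every group had 3 libraries, all of the same genotype. The labels name no solvent for coronatine or DPAM-1, and for the groups without NaCl they state no time of harvest and no mock treatment. The libraries of a group carry only a replicate number, so p-values measure the spread between these libraries, which may be technical.

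Beta-tubulin pairs with alpha-tubulin to form the heterodimer from which microtubules are built. In elongating plant cells, cortical microtubules guide the cellulose synthase complexes, and in dividing cells microtubules form the preprophase band, the spindle and the phragmoplast. The plant hormone and salt responses of seedlings are known to include changes of growth and of the cortical array. Members of the family differ in where they are used in the plant: TUB1 is known for its use in roots and TUB9 for its use in pollen.

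The members lie on 4 of the nuclear chromosomes of the TAIR10.1 RefSeq annotation, which was used to look up the gene codes since the count table carries no coordinates. TUB1 (AT1G75780) is at chr1:28451138-28453820 and TUB5 (AT1G20010) at chr1:6937719-6940832, both on the minus strand. TUB2 (AT5G62690, chr5:25181296-25183811) and TUB3 (AT5G62700, chr5:25184258-25186777) follow each other on the plus strand with 446 bases between them. Over the 36 pairs of members the coding sequences were between 78.34% and 97.63% identical. TUB2 and TUB3 were the closest pair, with 32 differences, and TUB1 and TUB5 were 87.41% identical. The 3′ untranslated regions had diverged further, at 60.71% for TUB2 and TUB3, and the last 300 bases of those transcripts shared no run longer than 17 bases. Lasy-Seq reads come from transcript 3′ ends. How the counting treated reads that match both copies is not given in the sources used here, so TUB2 and TUB3 were also tested as a sum.

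The 250 bases before the annotated gene start are shown for the members at the ends of the range of the coronatine response, TUB1 and TUB5, which fell most, and TUB2 and TUB3, which were near 0. Each is written 5′ to 3′ along its gene's strand, from RefSeq TAIR10.1. Capitals mark matches on either strand to TGGGCC and to TGGGCT, the site II elements known from promoters of genes of dividing plant cells, and to TATAAA, the core of the TATA box. The windows are chr1:28453821-28454070 (minus strand) for TUB1, chr1:6940833-6941082 (minus strand) for TUB5, chr5:25181046-25181295 (plus strand) for TUB2 and chr5:25184008-25184257 (plus strand) for TUB3.
TUB1: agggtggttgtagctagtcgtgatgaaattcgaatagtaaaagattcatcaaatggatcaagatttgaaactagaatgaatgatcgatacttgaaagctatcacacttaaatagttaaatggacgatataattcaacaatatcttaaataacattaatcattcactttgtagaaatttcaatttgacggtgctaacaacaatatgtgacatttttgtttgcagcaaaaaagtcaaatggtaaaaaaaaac
TUB5: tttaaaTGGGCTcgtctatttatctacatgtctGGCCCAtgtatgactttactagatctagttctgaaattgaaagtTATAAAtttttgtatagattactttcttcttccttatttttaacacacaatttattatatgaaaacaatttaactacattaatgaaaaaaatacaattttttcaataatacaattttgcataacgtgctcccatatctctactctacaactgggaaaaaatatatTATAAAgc
TUB2: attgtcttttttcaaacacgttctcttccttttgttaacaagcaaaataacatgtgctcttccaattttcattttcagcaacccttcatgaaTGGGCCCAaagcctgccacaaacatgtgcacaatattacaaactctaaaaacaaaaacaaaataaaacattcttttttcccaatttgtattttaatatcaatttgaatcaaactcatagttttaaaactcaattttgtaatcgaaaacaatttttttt
TUB3: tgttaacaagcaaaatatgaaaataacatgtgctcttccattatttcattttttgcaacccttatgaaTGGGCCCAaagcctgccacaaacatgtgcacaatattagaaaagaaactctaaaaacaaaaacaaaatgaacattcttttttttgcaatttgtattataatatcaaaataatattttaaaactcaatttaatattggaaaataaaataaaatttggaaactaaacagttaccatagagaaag

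The windows of TUB2 and TUB3 both held TGGGCC on each strand in overlapping letters, starting 158 and 182 bases before the gene start, and were 63.05% identical. TUB5 held TGGGCC once, on the reverse strand, besides TGGGCT and a pair of TATAAA matches, the nearer one 8 bases before the start. TUB1, TUB4 and TUB6 held none of these 3 motifs in their windows. Of all 27443 windows of this length, 13.7% held TGGGCC, 12.3% TGGGCT and 47.3% TATAAA. The G-box letters CACGTG were found in TUB7 alone among the members, 234 bases before its start, against 6.49% of all windows. CANNTG was in every member's window and in 55.3% of all windows, and AACCCTA was in no member's window and in 6.56% of all. The letters CGTGCG (1.57% of windows) and CGTGTG (5.37%) were found in TUB7 alone among the members, and CGTGCG overlaps the G-box letters there. These matches describe letters in a window and were not tested against the responses.

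Depth ranged from 13638981 to 37279056 reads per library, and scaling factors from 0.847 to 1.13. Every gene of the table had at least 30 reads in each library, so no member was lost to a filter on low counts. The deposited table thus holds no gene under 30 reads in any library, so a gene absent from it may still be expressed. Shares of all genes are over the 14229 genes in it. All 8 dividing-cell, 5 root hair, 5 endodermis and 6 photosynthetic cell markers were present, as in whole seedlings, and 0 of 3 pollen and 0 of 5 seed storage markers were in the table. Levels below are CPM, a gene's reads relative to its library's total as scaled by the trimmed mean of M-values (TMM). They are given for replicates 1, 2 and 3, and fold changes compare them only within a gene, or for TUB2 and TUB3 as a sum. Sums over the family or a marker list, and shares of family reads, are described without a test. Differences are log2 fold changes with their standard errors (SE), called at an adjusted p under 0.05 over all 14229 genes by edgeR's quasi-likelihood test.

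**Figure D1:**
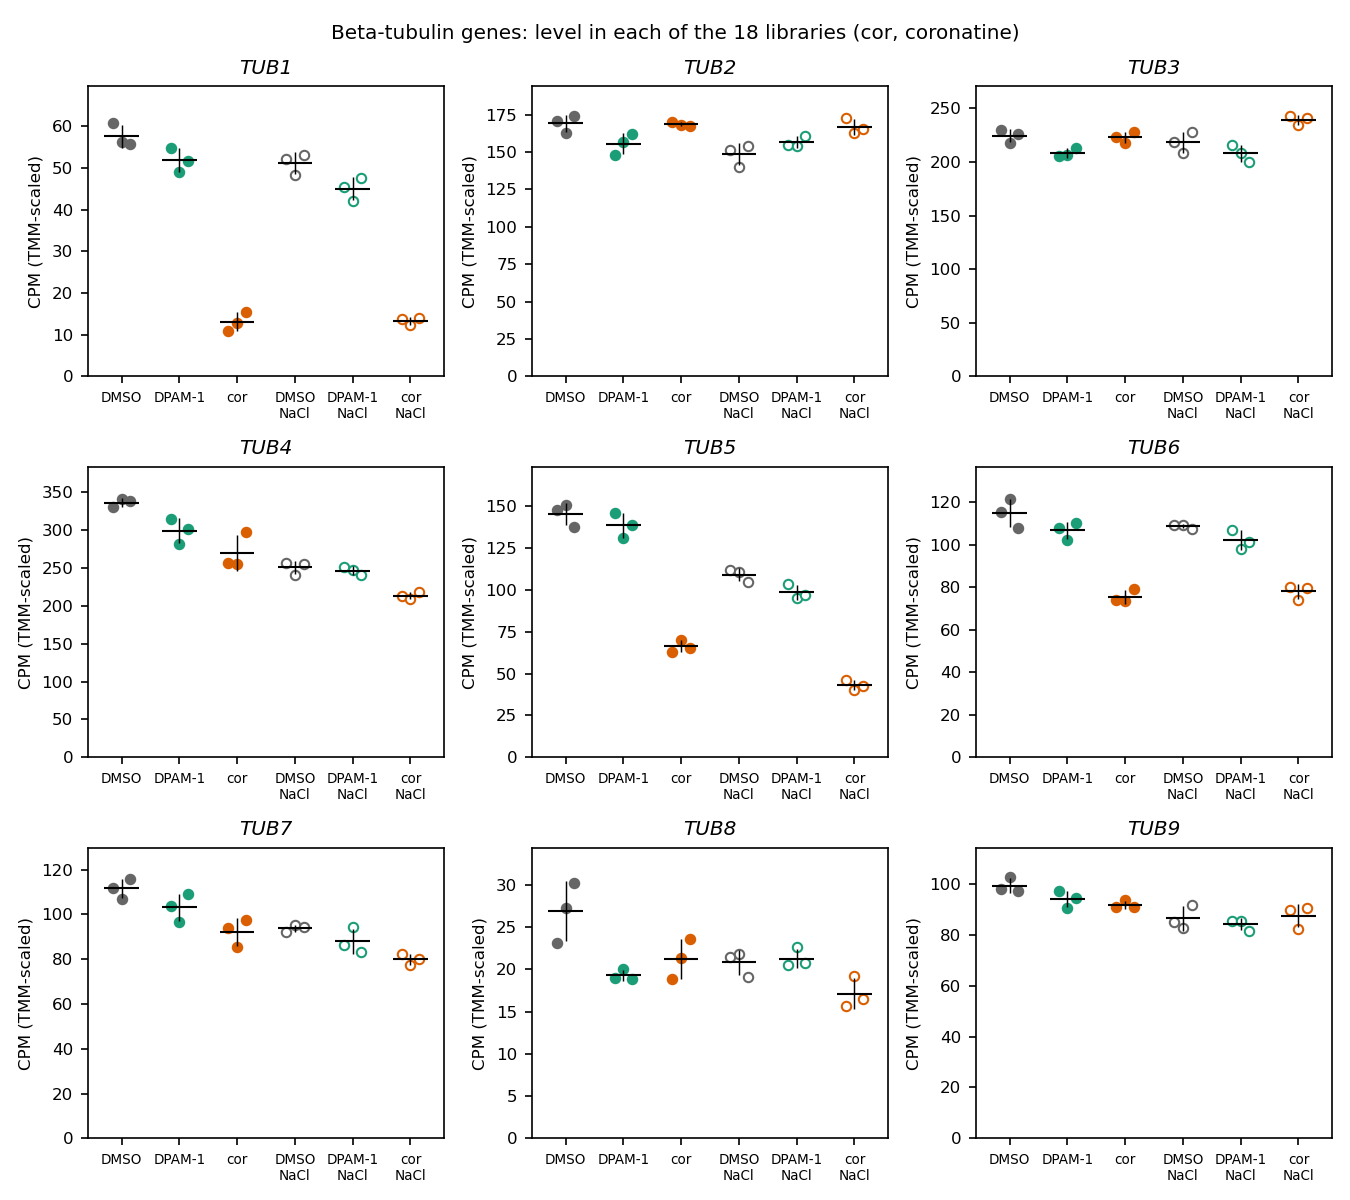
Level of each beta-tubulin gene (y axis, TMM-scaled CPM from 0) in each of the 18 libraries, by group (x axis; filled points without NaCl, open points with 100 mM NaCl; horizontal bars, means; vertical bars, SD, n = 3). In TUB1, TUB5 and TUB6 the 6 coronatine libraries lie below the other 12, between 11.0 and 15.5 CPM in TUB1.

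After coronatine, 6 of the 9 members were lower and none higher in seedlings without NaCl. TUB1 fell 4.46-fold and TUB5 2.19-fold, TUB6 fell 1.52-fold, and TUB4, TUB7 and TUB8 fell by less than that. TUB2, TUB3 and TUB9 did not pass the test. Of all genes, 17.4% were called lower and 17.4% higher in this comparison. The members' median log2 fold change was -0.32, beside -0.01 over all genes.

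TUB1 stood at 60.8, 56.1 and 55.8 CPM in DMSO and at 11.0, 12.8 and 15.5 CPM after coronatine. Every coronatine library was therefore far below every DMSO library, a log2 fold change of -2.16 ± 0.10 (SE, n = 3 a group, adjusted p = 3.3e-14). TUB5, the member closest to TUB1 in coding sequence, went from 147, 150.4 and 138 CPM to 63.0, 70.0 and 65.4 CPM. The groups did not overlap, and the log2 fold change was -1.13 ± 0.07 (adjusted p = 9.82e-12). TUB6 went from 115, 121 and 108 CPM to 73.9, 73.3 and 79.3 CPM, again with no overlap, and fell by 0.61 ± 0.07 on the log2 scale (adjusted p = 1.93e-07). In whole seedlings, fewer cells of a type and less RNA per cell cannot be told apart.

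TUB4 stood at 330.1, 341 and 338 CPM in DMSO and at 256, 256 and 297 CPM after coronatine. Coronatine replicate 3 was nearer to DMSO than the other two, yet below every DMSO library, and the log2 fold change was -0.32 ± 0.07 (adjusted p = 0.00066). TUB7 went from 112, 107 and 116 CPM to 93.9, 85.3 and 97.5 CPM (log2 fold change -0.27 ± 0.07, adjusted p = 0.00492). For TUB8 the groups overlapped, with 23.2, 27.3 and 30.3 CPM in DMSO against 18.8, 21.3 and 23.6 CPM, a log2 fold change of -0.35 ± 0.11 (adjusted p = 0.0178). Without DMSO replicate 3 or coronatine replicate 1 the TUB8 call ended, with an adjusted p of up to 0.119. With only the groups compared in the fit, the adjusted p was 0.0556 for TUB7 and 0.075 for TUB8.

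The tandem pair was level in this scaling. TUB2 stood at 171, 163 and 174 CPM in DMSO and 170.0, 168 and 168 CPM after coronatine, with overlapping groups and a 95% interval of the log2 fold change from -0.14 to 0.13 (adjusted p = 0.96). TUB3 stood at 229.9, 218 and 226 CPM against 223, 218 and 228 CPM, with an interval from -0.14 to 0.12 (adjusted p = 0.921). TUB9 had 98.0, 103 and 97.4 CPM against 90.8, 93.6 and 91.1 CPM, groups that did not overlap, but its log2 fold change of -0.11 ± 0.07 missed the threshold (adjusted p = 0.215).

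How coronatine libraries are scaled moves every member by about the same amount. The median of all genes was -0.01 with TMM, -0.13 when scaled by upper quartiles and -0.24 when scaled by library totals, and 50.1%, 32.5% and 20.7% of the called genes were higher after coronatine. Relative to that median, TUB1 was at -2.14 under each of the 3 scalings, TUB5 at -1.12 and TUB6 at -0.59. TUB2 and TUB3 were within 0.01 of it under each. With library totals TUB2, TUB3 and TUB9 were therefore also called lower (adjusted p = 0.00538, 0.00283 and 9.17e-05), as was TUB9 with upper-quartile factors (0.00651).

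Under NaCl, in separate libraries, TUB1, TUB4, TUB5, TUB6, TUB7 and TUB8 were again lower after coronatine. Of all genes 24% were lower and 23.8% higher here, and the members' median was -0.23 beside -0.01 over all genes. TUB1 went from 52.2, 48.2 and 53.1 CPM in DMSO with NaCl to 13.7, 12.3 and 14.0 CPM, a log2 fold change of -1.93 ± 0.10 (adjusted p = 1.42e-13). TUB5 went from 112, 111 and 104 CPM to 46.0, 40.4 and 42.7 CPM, a log2 fold change of -1.34 ± 0.08 (adjusted p = 4.57e-13). In neither gene did the groups overlap. The log2 fold change of TUB6 was -0.48 (adjusted p = 4.78e-06), with TUB4 at -0.23 (0.00703), TUB7 at -0.23 (0.0122) and TUB8 at -0.29 (0.0369, overlapping groups). The TUB8 call ended without either of DMSO replicates 1 and 2 or coronatine replicates 1 and 3 of the NaCl groups, with an adjusted p of up to 0.166.

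TUB2 was the single member called higher, and its direction depended on the scaling. It had 152, 140.0 and 154 CPM in DMSO with NaCl and 173, 163 and 165 CPM in coronatine with NaCl. The groups did not overlap, and the log2 fold change was 0.17 ± 0.06 (adjusted p = 0.0357) with TMM, 0.01 (0.935) under upper-quartile scaling and -0.16 (0.0385) under library totals. The call also ended, with an adjusted p of up to 0.161, when any of DMSO replicates 1 and 2 or coronatine replicates 1 and 3 under NaCl was left out. TUB3 was at 0.13 ± 0.06 with TMM (adjusted p = 0.0802) and at -0.19 with library totals (0.00862). Counted as a sum, TUB2 and TUB3 were at 0.15 (adjusted p = 0.0466). Relative to the median of all genes, which was -0.17 and -0.34 under the other scalings, TUB2 stayed at 0.18 and TUB3 at 0.15. The share of called genes that were higher was 49.8%, 30.2% and 17.4% under the 3 scalings.

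**Figure D2:**
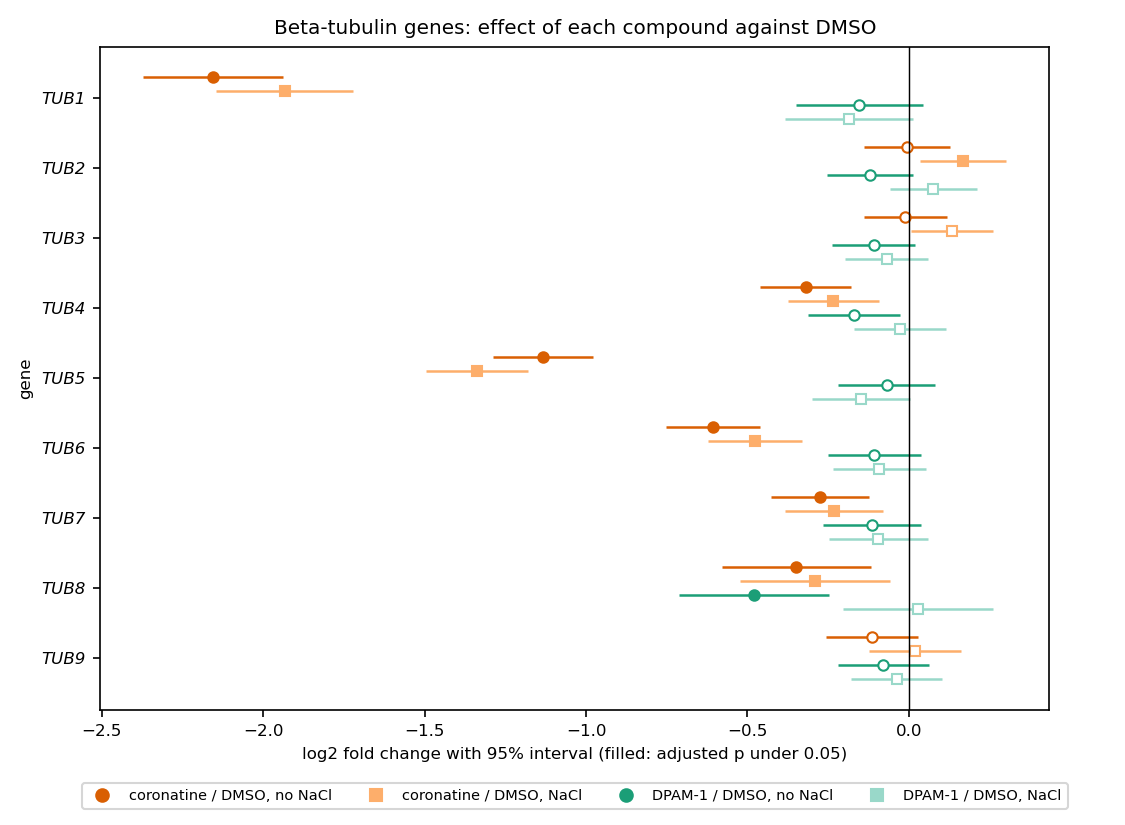
Log2 fold change against DMSO (x axis) of each member (y axis) with its 95% interval, for coronatine and DPAM-1 without NaCl (circles) and under NaCl (squares), from edgeR with TMM. Filled symbols passed an adjusted p of 0.05; coronatine lies near -2.16 and -1.93 for TUB1, while DPAM-1 stays within -0.48 and 0.08 for every member, and the sign of TUB2 and TUB3 under NaCl turns with library totals.

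Between DPAM-1 and DMSO a single member was called. In seedlings without NaCl, TUB8 was the only member called, lower than in DMSO, where 0.218% of all genes were called lower and 1.02% in either direction. It stood at 19.0, 20.0 and 18.9 CPM after DPAM-1, below all of the DMSO values of 23.2, 27.3 and 30.3 CPM, with a log2 fold change of -0.48 ± 0.11 (adjusted p = 0.035). The call ended when DMSO replicate 2 or 3, or any DPAM-1 replicate, was left out (adjusted p of up to 0.202). It also ended with library totals (0.0585) and with only the groups compared in the fit (0.0537). These DMSO libraries also serve the TUB8 calls for coronatine without NaCl and for NaCl in DMSO, so the calls are not separate observations. Each of them ended without DMSO replicate 3 (30.3 CPM). The other 8 members lay between -0.17 (TUB4) and -0.07 (TUB5), and the members' median was -0.11, beside -0.0004 over all genes. For TUB1 the 95% interval ran from -0.35 to 0.04 and for TUB5 from -0.22 to 0.08. Of the called genes in the whole table, 78.6% were higher with TMM, 67.6% under upper-quartile scaling and 75.8% under library totals.

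Under NaCl edgeR called 0 of 9 members between DPAM-1 and DMSO, where 0.576% of all genes were called. None had an unadjusted p under 0.05, and DESeq2 also called 0. The members lay between -0.18 (TUB1, 95% interval -0.38 to 0.01) and 0.08 (TUB2, -0.06 to 0.21), with a median of -0.07. TUB8, at 20.5, 22.6 and 20.8 CPM against 21.5, 21.9 and 19.2 CPM, had overlapping groups and an interval from -0.20 to 0.26.

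Set directly against each other, DPAM-1 left TUB1, TUB5 and TUB6 higher than coronatine did, by 2.00 ± 0.10, 1.06 ± 0.07 and 0.50 ± 0.07 on the log2 scale (adjusted p = 1.4e-13, 3.29e-11 and 3.7e-06). Of all genes, 17.4% were higher in this direction. The comparison uses the same coronatine and DPAM-1 libraries as those against DMSO, so it is not a separate observation of them. TUB4 (0.15) and TUB7 (0.16) missed the threshold (0.0956 and 0.095), and both passed without coronatine replicate 3 (5 members in all). They also passed with upper-quartile factors, and the share of called genes that were higher was 49.9% with TMM, 63.0% under upper-quartile scaling and 76.7% under library totals.

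Under NaCl 5 members were higher after DPAM-1 than after coronatine, TUB1 (1.75), TUB5 (1.19), TUB6 (0.39), TUB8 (0.32) and TUB4 (0.21), where 20.9% of all genes were higher and 21.4% lower. These coronatine and DPAM-1 libraries were also set against DMSO with NaCl, so this is not a separate observation of them. The adjusted p was 0.0282 for TUB8 and 0.0181 for TUB4. The TUB4 call ended without coronatine replicate 2 or DPAM-1 replicate 1 of the NaCl groups (up to 0.0639), and the TUB8 call without coronatine replicate 1 or 3 or DPAM-1 replicate 2 (up to 0.134). TUB3 was lower after DPAM-1 with TMM, at 216, 209 and 199.8 CPM against 243, 234 and 241 CPM (log2 fold change -0.20 ± 0.06, adjusted p = 0.0108). That call ended without DPAM-1 replicate 3 (0.0611) and with upper-quartile factors (-0.06, 0.437), and the sign turned with library totals (0.10, 0.158). The median of all genes was 0.005 with TMM, 0.15 under upper-quartile scaling and 0.31 under library totals, and 49.4%, 68.3% and 82.1% of the called genes were higher.

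TUB4, TUB5 and TUB7 were lower with NaCl in each of the 3 pretreatments, which are separate sets of libraries. In DMSO 6 of 9 members were lower and none higher, where 7.88% of all genes were called lower and 9.8% higher, and the members' median was -0.20 beside -0.01. After DPAM-1 3 of 9 were lower, beside 5.33% of all genes lower and 6.92% higher, and after coronatine 4 of 9, beside 12.1% and 14.7%. Without a single library these counts fell to 2 to 4 in DMSO, to 1 without DPAM-1 replicate 1, and to 2 without coronatine replicate 3 or coronatine with NaCl replicate 1 or 3. No member was called higher with NaCl in any pretreatment. The shifts were smaller than those of coronatine on TUB1 and TUB5, and reached 1.53-fold at most, in TUB5 after coronatine.

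TUB4 fell with NaCl from 330.1, 341 and 338 CPM to 257, 241 and 256 CPM in DMSO, from 315, 282 and 301 CPM to 251, 248 and 240.4 CPM after DPAM-1, and from 256, 256 and 297 CPM to 213, 209 and 219 CPM after coronatine. The groups did not overlap in any pretreatment, and the log2 fold changes were -0.42 ± 0.07, -0.28 ± 0.07 and -0.34 ± 0.07 (adjusted p = 9.97e-05, 0.00787 and 0.000841). The call after DPAM-1 ended without DPAM-1 replicate 1 (0.055).

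TUB5 fell with NaCl from 147, 150.4 and 138 CPM to 112, 111 and 104 CPM in DMSO, from 146, 131 and 139 CPM to 103, 94.9 and 97.1 CPM after DPAM-1, and from 63.0, 70.0 and 65.4 CPM to 46.0, 40.4 and 42.7 CPM after coronatine. Every NaCl library was below every library of its pretreatment without NaCl, and the log2 fold changes were -0.41 ± 0.07, -0.49 ± 0.07 and -0.62 ± 0.08 (adjusted p = 0.000263, 5.85e-05 and 2.28e-06). The difference between these 3 values was not called (adjusted p = 0.318 for coronatine against DMSO and 0.998 for DPAM-1 against DMSO). The order of TUB5 levels was DMSO, DPAM-1, DMSO with NaCl, DPAM-1 with NaCl, coronatine and coronatine with NaCl, and only DMSO and DPAM-1 had overlapping libraries among neighbours.

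TUB7 had smaller falls, of -0.25, -0.23 and -0.21 on the log2 scale (adjusted p = 0.02, 0.0428 and 0.0421), with no overlap between groups. Each of these calls ended when some single libraries were left out, up to an adjusted p of 0.0645 in DMSO (replicate 1 or 3 of either group), 0.195 after DPAM-1 (replicate 1 or 3 of either group) and 0.142 after coronatine (coronatine replicate 1 or 3, or any replicate with NaCl). With only the groups compared in the fit the adjusted p was 0.056 in DMSO and 0.0707 after coronatine, and with library totals it was 0.0607 after DPAM-1.

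TUB8 was lower with NaCl in DMSO (log2 fold change -0.37 ± 0.11, adjusted p = 0.0226) and after coronatine (-0.31 ± 0.11, 0.0461), and it was at 0.14 ± 0.11 after DPAM-1 (0.52). In DMSO the 23.2, 27.3 and 30.3 CPM became 21.5, 21.9 and 19.2 CPM, with no overlap, and after coronatine the 18.8, 21.3 and 23.6 CPM became 15.7, 19.2 and 16.5 CPM, with overlap. After DPAM-1 the 19.0, 20.0 and 18.9 CPM became 20.5, 22.6 and 20.8 CPM. The call in DMSO ended without DMSO replicate 2 or 3 or the NaCl replicate 3 (up to 0.119), and that after coronatine without coronatine replicate 2 or 3 or NaCl replicate 1 or 3 (up to 0.196). With only the groups compared in the fit, these were 0.0624 and 0.0673.

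TUB9 (-0.20 ± 0.07, adjusted p = 0.0431) and TUB2 (-0.19 ± 0.06, 0.0488) were called lower with NaCl in DMSO alone, without overlap between groups. TUB9 had 98.0, 103 and 97.4 CPM against 85.0, 82.5 and 91.8 CPM, and TUB2 171, 163 and 174 CPM against 152, 140.0 and 154 CPM. Both calls were marginal. That of TUB9 ended without any DMSO replicate or without NaCl replicate 1 or 2 (up to 0.153), and that of TUB2 without DMSO replicate 1 or 3 or any NaCl replicate (up to 0.194). Summed with TUB3, TUB2 was at -0.10 (adjusted p = 0.27). The DMSO libraries with NaCl are also those against which TUB2 was called higher after coronatine, so these TUB2 calls are not separate observations. With only the groups compared in the fit the adjusted p was 0.132 for TUB9 and 0.148 for TUB2, and with the factors of DESeq2 in edgeR it was 0.0545 and 0.0613.

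TUB1, TUB3 and TUB6 were not called with NaCl in any pretreatment. TUB1 was at -0.17 in DMSO (95% interval -0.36 to 0.03), -0.20 after DPAM-1 (-0.40 to -0.001) and 0.05 after coronatine (-0.17 to 0.28). For TUB3 the intervals were -0.17 to 0.09, -0.13 to 0.13 and -0.03 to 0.23, and for TUB6 -0.22 to 0.06, -0.21 to 0.08 and -0.10 to 0.20. In TUB1 the order of levels was DMSO, DPAM-1, DMSO with NaCl, DPAM-1 with NaCl, coronatine with NaCl and coronatine. Libraries overlapped between DPAM-1 and DMSO with NaCl, and between the 2 coronatine groups.

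**Figure D3:**
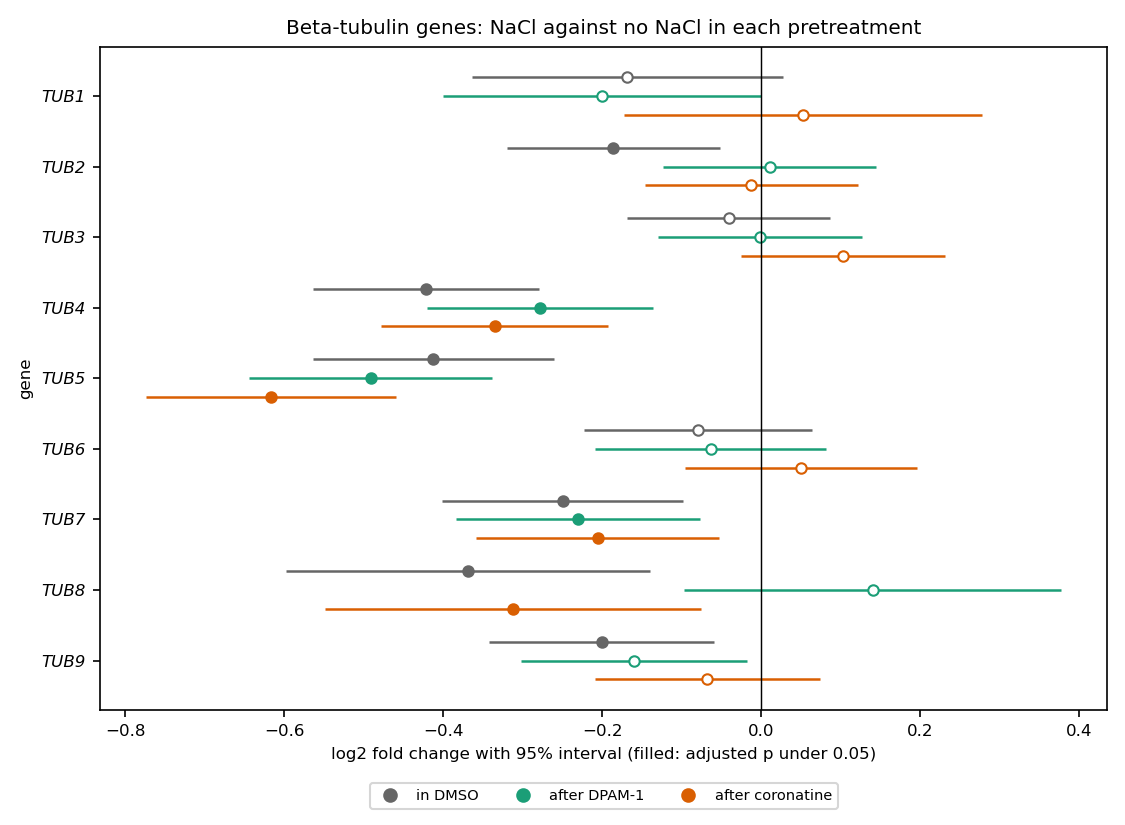
Log2 fold change of NaCl against no NaCl (x axis) with its 95% interval for each member (y axis), in DMSO, after DPAM-1 and after coronatine, from edgeR with TMM; filled points passed an adjusted p of 0.05. TUB4, TUB5 and TUB7 are filled and below 0 in all 3 pretreatments, and TUB8 is above 0 after DPAM-1 (0.14, not called).

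Whether the NaCl response differed between pretreatments was tested with interaction terms. edgeR called 0 of 9 members for DPAM-1 against DMSO, for coronatine against DMSO and for coronatine against DPAM-1, where 0.499%, 3.84% and 4.04% of all genes were called. At an unadjusted p under 0.05 there were 2, 0 and 1 members, and DESeq2 called 0 in each. TUB8 had the widest difference, with an interaction of 0.51 ± 0.16 for DPAM-1 (95% interval 0.18 to 0.84, adjusted p = 0.34) and of -0.45 ± 0.16 for coronatine against DPAM-1 (-0.79 to -0.12, 0.129). Its interaction for DPAM-1 uses the same libraries without NaCl as the TUB8 call between DPAM-1 and DMSO. The other member at an unadjusted p under 0.05 was TUB2, with 0.20 ± 0.09 for DPAM-1 (adjusted p = 0.85). Of the called genes in the table, the share that was higher in the coronatine interaction was 43.4%, 32.9% and 22.6% under the 3 scalings, in the coronatine against DPAM-1 difference 56.5%, 42.9% and 32.9%, and in NaCl after coronatine 55.0%, 42.8% and 32.3%.

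Summed over the 9 members, the family level was 1286 ± 2.03 CPM in DMSO (SD, n = 3), 1176 ± 36.9 after DPAM-1 and 1021 ± 38.3 after coronatine. With NaCl the sums were 1088 ± 26.9, 1050.1 ± 18.9 and 939 ± 24.5 CPM. TUB4 gave 26.2% of family reads in DMSO and 26.4% after coronatine. TUB1 went from 4.48% of family reads in DMSO to 1.28% after coronatine, TUB5 from 11.3% to 6.49%, and TUB6 from 8.93% to 7.39%. The shares of TUB2 and TUB3 were 13.2% and 17.5% in DMSO, 16.5% and 21.9% after coronatine, and 17.8% and 25.5% after coronatine with NaCl. Of the reads of TUB2 and TUB3 together, TUB2 took 42.6% to 43.4% in DMSO and 40.1% to 41.0% in DMSO with NaCl, 42.3% to 43.5% and 40.7% to 41.5% for coronatine, and 41.9% to 43.2% and 41.8% to 44.6% for DPAM-1. These shares are described without a test, since a share falls or rises with the other members.

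Across the 18 libraries, members that responded alike can be read from Pearson's r between their log2 CPM, a description that takes in the group differences. TUB1 and TUB6 had an r of 0.978, TUB4 and TUB7 0.931, and TUB1 and TUB5 0.920. The tandem neighbours TUB2 and TUB3 had 0.603, and TUB3 and TUB5 -0.622. The genes outside the family closest to the members' mean pattern were AT4G23820 (a pectin lyase-like protein, 0.979), AT1G55360 (annotated with a DUF239 domain, 0.978), AT5G02760 (a protein phosphatase 2C family member, 0.972), the alpha-tubulin gene TUA4 (0.971) and NPH3 (a phototropism protein, 0.967). That mean is of log2 CPM centred but not scaled, so members with wide changes, such as TUB1, weigh most in it. TUB1 had an r of -0.48 with TUB2 and of -0.57 with TUB3. The libraries share treatments and depth, so no p is given.

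Of the alpha-tubulin genes, which supply the partner subunit, 5 of 6 were lower after coronatine without NaCl, where 17.4% of all genes were lower, and 5 of 6 with it, where 24% were. Without NaCl the called ones lay between -0.58 (TUA5, adjusted p = 2.84e-07) and -0.43 (TUA6, 2.36e-05), and the list's median was -0.50. TUA4 was at -0.54 (3.54e-07), TUA3 at -0.53 (2.92e-06) and TUA2 at -0.47 (3.6e-06). The exception was TUA1, known for its use in pollen, at 0.10 (0.721). None of the alpha-tubulin genes reached the log2 change of TUB1 or TUB5. Between DPAM-1 and DMSO edgeR called 0 of 6, without and with NaCl, as did DESeq2, and 0 and 2 had an unadjusted p under 0.05. With NaCl 3 of 6 were lower in DMSO (7.88% of all genes), TUA3 (-0.74), TUA5 (-0.67) and TUA4 (-0.19, adjusted p = 0.043). After DPAM-1 4 were lower (5.33% of all genes) and after coronatine 3 (12.1%). TUA3 and TUA5 have neighbouring gene codes and encode near-identical proteins, so reads could have been divided between them.

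For the lists that follow, values after coronatine are those without NaCl unless stated. The shares of all genes called were 17.4% lower and 17.4% higher after coronatine, and 7.88% lower and 9.8% higher with NaCl in DMSO. The microtubule-associated proteins had 31 of 39 genes in the table. After coronatine 12 were lower and 1 higher, with a median of -0.27. The lower ones of smallest p were WDL3, a WAVE-DAMPENED2-like protein (-1.20), MAP65-1, which bundles microtubules (-0.58), and PCAP1, a plasma membrane protein that binds microtubules (-0.61). TON1A, needed for the preprophase band, was higher (0.27, adjusted p = 0.0362). With NaCl in DMSO 8 were lower, among them PCAP1 (-0.94), CMU1 (-0.65) and CSI1, which links cellulose synthase to microtubules (-0.51). Of 14 measured gamma-tubulin complex and augmin genes out of 16, which nucleate microtubules, 3 were lower after coronatine, NEDD1 (-0.63), AUG3 (-0.47) and GCP4 (-0.71), a count near the share of all genes called lower. With NaCl in DMSO edgeR and DESeq2 called 0 of these 14, and 1 had an unadjusted p under 0.05. Of 21 tubulin folding genes 1 was lower after coronatine, CCT6B of the cytosolic chaperonin (-0.25), and 7 with NaCl in DMSO, among them the chaperonin genes CCT2 (-0.31), CCT6A (-0.32) and CCT5 (-0.31). Of 8 measured kinesin genes out of 13, edgeR and DESeq2 called 0 after coronatine without NaCl, with 0 at an unadjusted p under 0.05. Both called 1 with NaCl in DMSO, ARK3 (-0.69). Between coronatine and DMSO under NaCl, edgeR called 2 kinesin genes lower, ATK5 (-0.61) and FRA1 (-0.41), and DESeq2 called 3. There 14 microtubule-associated protein genes were lower. Of the gamma-tubulin and augmin genes 2 were lower and 1 higher, and of the folding genes 2 were lower and 4 higher. Of all genes 24% were lower and 23.8% higher in that comparison.

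Actin, the other cytoskeletal polymer, served as a comparison, with 6 of 8 genes in the table. After coronatine ACT1 was higher (1.68 ± 0.09, adjusted p = 8.39e-14), ACT11 lower (-1.16) and ACT8 lower (-0.40, overlapping groups). With NaCl in DMSO 4 of 6 were lower, ACT11 (-0.77), ACT2 (-0.44) and ACT8 (-0.34) with the smallest p. The median of the actin list was -0.05 after coronatine and -0.28 with NaCl, beside -0.32 and -0.20 for beta-tubulin.

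**Figure D4:**
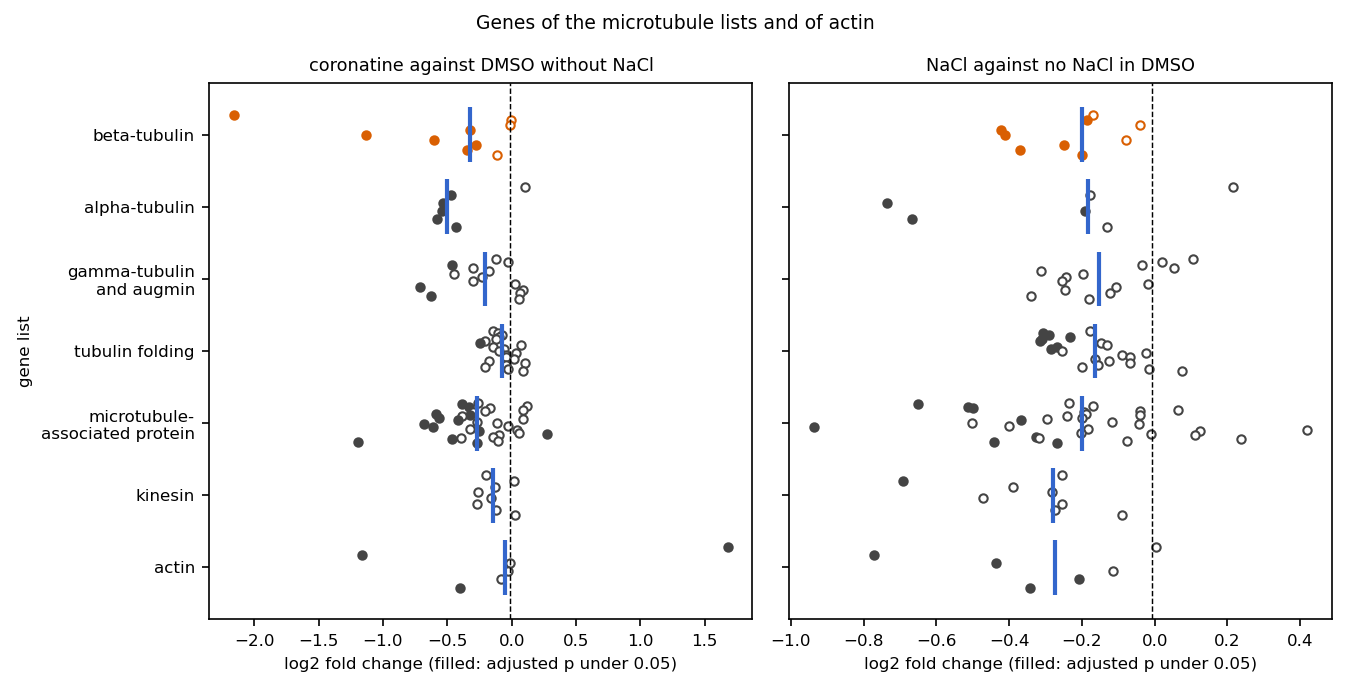
Log2 fold change (x axis) of each measured gene of the microtubule lists and of actin (rows), for coronatine against DMSO without NaCl and for NaCl against no NaCl in DMSO, from edgeR with TMM; filled points passed an adjusted p of 0.05, blue bars are list medians and the dashed line is the median of all genes. Beta-tubulin has a median of -0.32 after coronatine and alpha-tubulin -0.50, while actin holds ACT1 at 1.68 and ACT11 at -1.16.

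Most markers of dividing cells did not pass the test. After coronatine without NaCl 3 of 8 were lower, PCNA1 (-0.56), PCNA2 (-0.43) and CDKB1-1 (-0.48), beside 17.4% of all genes. The uncalled ones lay at -0.25 (CDKB2-1), -0.23 (CYCB1-2), -0.18 (CYCA2-3), -0.14 (KNOLLE) and 0.04 (CYCB1-1). The list's median was -0.24. Under NaCl 4 of 8 were lower, beside 24% of all genes. With NaCl 2 of 8 were lower in DMSO, 1 after DPAM-1 and 1 after coronatine, beside 7.88%, 5.33% and 12.1% of all genes. The count after coronatine is near the share of all genes. Their summed level (8 of 8 measured) was 167 to 178 CPM in DMSO, 169.9 to 174 after DPAM-1 and 124 to 144 after coronatine, and with NaCl 144 to 150.2, 144 to 152 and 111 to 123.

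Endodermis markers (5 of 5 measured) summed to 45.3 to 64.7 CPM in DMSO, 71.8 to 73.8 after DPAM-1 and 35.0 to 41.1 after coronatine, and with NaCl to 58.9 to 62.8, 68.4 to 81.5 and 43.3 to 59.5. After coronatine 3 of 5 were lower without NaCl, beside 17.4% of all genes. Under NaCl 1 was lower and 1 higher, with overlapping sums, beside 24% and 23.8% of all genes. Between DPAM-1 and DMSO edgeR called 0 of these 5, without and with NaCl, beside 1.02% and 0.576% of all genes. At an unadjusted p under 0.05 there were 2 and 3, and DESeq2 called 2 and 0. Root hair markers (5 of 5 measured) summed to 100.3 to 116 CPM in DMSO, 81.5 to 91.9 after DPAM-1 and 140.4 to 164 after coronatine, and with NaCl to 93.7 to 122, 83.2 to 91.1 and 128 to 134. After coronatine 3 of 5 were higher without NaCl, EXPA18 (0.97), EXPA7 (0.96) and PRP3 (0.50), beside 17.4% of all genes. Under NaCl 3 of 5 were higher, EXPA18 (0.80), EXPA7 (0.45) and RHD6 (1.28), beside 23.8%. PRP3 was at 0.06 there and RHD6 at 0.24 without NaCl, neither called. COBL9 went the other way without NaCl, at -0.35 (adjusted p = 0.299), and was at 0.06 under NaCl, also uncalled. After DPAM-1 1 of 5 was lower, PRP3, at -0.48 without and -0.50 under NaCl. Of all genes 0.218% were called lower without NaCl, and 0.576% in either direction under it. The uncalled root hair markers fell both ways after DPAM-1. Without NaCl they were EXPA7 (0.40), RHD6 (0.18), EXPA18 (-0.21) and COBL9 (-0.22). Under NaCl they were at -0.19, -0.06, 0.05 and 0.13, in the same order. The part of these cell types in the beta-tubulin results was not tested.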

How the data were processed

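RNA from whole seedlings (18 libraries, 6 groups of 3) was sequenced by Lasy-Seq version 1.1 per the labels' protocols. Per the submitters' processing notes, bcl2fastq, Trimmomatic, HISAT2, featureCounts and DESeq2 were used with the TAIR10 build, and no versions or settings are given. The authors deposited a raw count of reads for each of 14229 genes, and every result comes from these counts. Their other deposited table, of unit signal, holds the same counts divided by 1 factor per library and was used only for that check.

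Counts were fitted with edgeR 4.0.16 in R 4.3.3 (limma 3.58.1), using TMM factors, a mean for each of the 6 groups over all 18 libraries, the quasi-likelihood test and Benjamini-Hochberg adjustment over all genes, called under 0.05. The low-count filter removed 0 genes, and the common biological coefficient of variation was 10.4%. SEs are the log2 fold change divided by the root of the F statistic, and intervals are 95%. The fit was first run on simulated data with changes placed in the coronatine group alone. Of the 12 comparisons, only coronatine and DPAM-1 against DMSO, both without NaCl, were scored on these data. Alternatives were DESeq2 1.42.0, other scaling factors, filters, the samples in the fit, a replicate block, TUB2 and TUB3 summed, a log2 threshold of 0.5 and each library left out.

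The members and gene lists were chosen with earlier results of these data known. All members are named, with up to 3 genes of smallest p per list and direction in 2 comparisons and the 5 genes most like the members' mean. Other genes and values named were chosen after their values were seen. Gene codes were matched to the TAIR10.1 annotation (14105 of 14229), from which Biopython 1.88 cut the promoter windows. Between coronatine and DMSO without NaCl, deviations of same-numbered libraries correlated at 0.127 to 0.499, above 0.1 in all 3 pairs. Of these 6 libraries, 4 correlated best with their own number. The labels state no pairing, and the values given above come from the fit without a block. The fit with the replicate block, also in those 2 groups alone, changed no call of a member there.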

Additional observations from a re-analysis of the deposited data

How the results depend on the processing

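Over 84 log2 fold changes of members, 1353 values were recomputed. Of these, 491 called and 722 uncalled ones kept their direction and their side of the threshold, 76 called ones lost the call and 19 gained one. The sign changed for 43 uncalled and 2 called ones (TUB2, coronatine against DMSO under NaCl, and TUB3, DPAM-1 against coronatine under NaCl, both with library totals). The calls of TUB1, TUB5 and TUB6 after coronatine, and of TUB5 with NaCl, held in every refit except under a log2 threshold of 0.5, which ended TUB6 under NaCl and TUB5 with NaCl in DMSO and after DPAM-1. The causes of the changes below were not tested.

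With library totals the log2 fold changes that changed sign were, for coronatine against DMSO under NaCl, -0.16 (TUB2), -0.19 (TUB3) and -0.31 (TUB9). For DPAM-1 against coronatine they were 0.083 (TUB2), 0.098 (TUB3) and 0.065 (TUB8) without NaCl, and 0.21 (TUB2), 0.10 (TUB3) and 0.25 (TUB9) under NaCl. For NaCl after coronatine they were -0.054 (TUB1), -0.0039 (TUB3) and -0.057 (TUB6), and for the TUB8 interaction with coronatine -0.042. With upper-quartile factors they were -0.028 (TUB3) and -0.14 (TUB9) for coronatine against DMSO under NaCl, 0.051 (TUB2) and 0.086 (TUB9) for DPAM-1 against coronatine under NaCl, 0.0024 (TUB3) for NaCl after DPAM-1 and -0.0024 (TUB6) for NaCl after coronatine. DESeq2 and its factors in edgeR gave 0.0023 and 0.0021 for TUB2 after coronatine, and 0.0036 each for TUB3 with NaCl after DPAM-1. The sum of TUB2 and TUB3 gave -0.0088 for DPAM-1 against DMSO under NaCl, 0.0039 for NaCl after DPAM-1 and 0.054 for NaCl after coronatine. Leaving out the DMSO and coronatine libraries numbered 3 together, chosen after seeing the data, gave 0.019 for TUB2 after coronatine.

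Counts of members called that moved by over 1.5 times were as follows. DPAM-1 against DMSO without NaCl went from 1 to 0 with library totals, with only the groups compared, with the threshold of 0.5 and without the libraries numbered 3. DPAM-1 against coronatine without NaCl went from 3 to 5 with upper-quartile factors, 6 with library totals and 5 without the libraries numbered 3. With the threshold of 0.5, coronatine against DMSO gave 3 without and 2 under NaCl, DPAM-1 against coronatine under NaCl 2, and NaCl 0 in DMSO, 0 after DPAM-1 and 1 after coronatine. With only the groups compared, NaCl gave 2 in DMSO and 2 after coronatine, and 2 after coronatine without the libraries numbered 3.

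Leaving out each library of the groups compared in turn gave between 5 and 6 members for coronatine against DMSO, 5 and 7 under NaCl, 0 and 1 for DPAM-1 against DMSO, 3 and 5 for DPAM-1 against coronatine, 5 in each refit under NaCl, and for NaCl 2 and 4 in DMSO, 1 and 3 after DPAM-1 and 2 and 3 after coronatine. Where such refits changed a sign, the log2 fold changes ran from -0.069 to 0.18 (TUB1, NaCl after coronatine), -0.039 to 0.015 (TUB2, coronatine), -0.038 to 0.0059 (TUB2, NaCl after coronatine), -0.024 to 0.040 (TUB2, NaCl after DPAM-1), -0.039 to 0.0064 (TUB3, coronatine), -0.028 to 0.027 (TUB3, NaCl after DPAM-1), -0.028 to 0.063 (TUB8, DPAM-1 under NaCl), -0.035 to 0.15 (TUB8, coronatine interaction), -0.013 to 0.064 (TUB9, coronatine under NaCl) and -0.070 to 0.0071 (TUB9, DPAM-1 under NaCl).

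Outside coronatine against DMSO without NaCl, same-numbered libraries did not deviate together (0 of 3 pairs above 0.1 in each other comparison), although every library correlated best with its own number in DPAM-1 against coronatine under NaCl and in NaCl after DPAM-1, a hint from the data and not the design. The replicate block moved the count of calls from 6 to 4 for NaCl in DMSO (TUB2, adjusted p = 0.0529, and TUB9, 0.0541) and from 3 to 2 for NaCl after DPAM-1 (TUB7, 0.0527), and changed no other call of a member.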
